A study of Mus musculus with 22 samples.

Results

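H3K27me3 regions found in neurogenic apical radial glia (aRG-N) and in no other cell type of the series numbered 1469, of 13700 merged H3K27me3 regions in all and 9836 on the autosomes. They were chosen by the H3K27me3 peak lists themselves. Peaks of the 5 H3K27me3 lists were merged where they shared at least 1 bp. A region was kept when it lay on an autosome, held a peak of the aRG-N list and of none of the other 4 lists, and held no peak of 10000 bp or more. Each of the 1469 regions consisted of a single aRG-N peak. Their absence from the other H3K27me3 lists is therefore the rule and not a result, and their widths, scores and distances to H3K27me3 peaks are given as descriptions. H3K4me3 played no part in the choice.

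H3K27me3, trimethylation of lysine 27 of histone H3, is laid down by Polycomb repressive complexes and marks genes held silent, among them many developmental regulators. H3K4me3, trimethylation of lysine 4 of the same histone, marks the start sites of active genes and of genes kept poised. A promoter that carries both marks is called bivalent. In the developing cortex, Polycomb activity is known to act on the timing with which radial glia pass from making progenitors to making neurons and glia.

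The series profiled both marks by chromatin immunoprecipitation and sequencing in purified neocortical cells of C57BL/6JOlaHsd mice. Neuroepithelial cells (NEC), the earliest progenitors, were taken at E9.5. At E14.5 the cells were the proliferative (aRG-P) and the neurogenic (aRG-N) class of apical radial glia, radial glia of basal position (bRG), and neurons (N). Each of the 10 combinations of cell type and mark had 2 samples, and 2 further samples were Input. How the cells were purified is not given in the sources used here. The 2 aRG-N H3K27me3 samples are labelled as technical replicates, so the list that defines these regions may rest on a single preparation of cells. For each mark in each cell type a single list, called on combined samples, was used. Replicate spread is therefore unknown for every value, and no difference between sets or cell types was tested. Intervals are exact Clopper-Pearson 95% intervals over regions and cover counting error only, and the read depth behind the lists is unknown. Positions are 1-based in mouse build mm9. Gene names, the labelled cell types' marker genes and sequences were not analysed here, since the reference tables used another build.

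The H3K27me3 lists differed in length, which bears on what counts as found in 1 list. The aRG-N list was the longest on the autosomes, with 6165 peaks, followed by NEC with 5798, N with 5448, aRG-P with 4634 and bRG with 3387. The peak names also differ: those of aRG-P mention an exclusion and those of N a read extension, and the part of either in what is found in aRG-N alone was not tested. Peak numbers were skipped in every H3K27me3 list, from 26.5% of them in bRG to 36.6% in aRG-N. A call of another cell type at an aRG-N only region can thus be missing from its list. Regions made by the same rule for the other cell types numbered 1815 for NEC, 920 for N, 560 for aRG-P and 106 for bRG. The aRG-N only regions were 23.8% of the autosomal aRG-N peaks and covered 1.65 Mb, which was 6.72% of the autosomal length under aRG-N peaks. Per the deposited scores, the lowest value in the aRG-N list was 15.8 and the lowest values in the other lists lay between 13.2 and 15.6. What the score measures, and whether it can be compared between lists, could not be settled.

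The aRG-N only regions were short and of low score within their list. Their median width was 887 bp and 833 of them (56.7%) were under 1000 bp, against a median of 2880 bp for the 4696 other autosomal aRG-N peaks. With each list held to its 3476 highest scores over all chromosomes, the median width of the aRG-N only regions was 1437.5 bp. The widths ran from 291 to 8097 bp, and the middle 50% of regions lay between 517 and 1389 bp. Their median score was 17.8, and that of the other autosomal aRG-N peaks was 26.5. Of the 1469 regions, 134 (9.12%) reached the median score of the whole list, 21.8. Most of these regions thus sat at the low end of both measures, while 21 were at least 4000 bp wide.

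**Figure D1:**
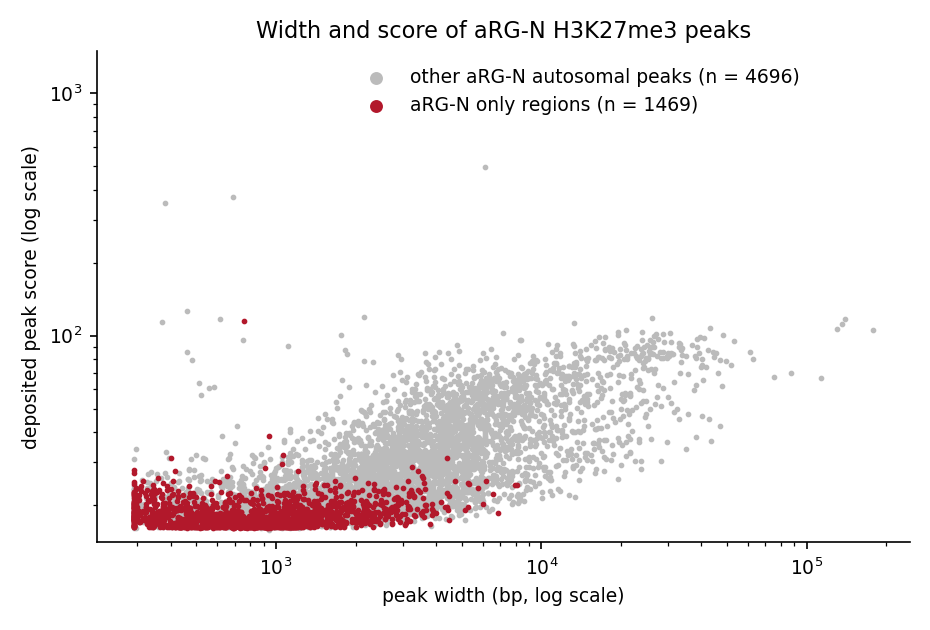
Width (bp, log scale) and deposited score (log scale) of each autosomal aRG-N H3K27me3 peak. Red points are the 1469 aRG-N only regions, with a median width of 887 bp and a median score of 17.8, and grey points are the 4696 other peaks, with medians of 2880 bp and 26.5. The red point far above the rest is the chromosome 11 region with a score of 115.

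The widest regions lay on chromosomes 4, 16 and 7, and none of them overlapped H3K4me3 in any list. The widest, chr4:95592049-95600145, was 8.10 kb long with a score of 24.3. It stood far from other H3K27me3, with the next aRG-N peak 2792562 bp away and the next peak of another list, in aRG-P, 211942 bp away. A second chromosome 4 region, chr4:125213744-125221673, was 7.93 kb long and had an N peak 2014 bp away. The region chr16:94441449-94448327 measured 6.88 kb, with a score of 18.5. Another aRG-N peak lay 1823 bp from it and an aRG-P peak 4244 bp from it. The chromosome 7 regions chr7:150081557-150088100 and chr7:121452879-121459080 measured 6544 bp and 6202 bp. The nearest peak of another list was 62025 bp away from the first and 320125 bp away from the second.

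The width limit removed few regions. The 3 widest regions below it were those of 8.10, 7.93 and 6.88 kb. Above it, 4 aRG-N only regions were left out: chr1:91569663-91580430 of 10.8 kb, chr11:84513829-84528719 of 14.9 kb, chr4:130414326-130436199 of 21.9 kb and chr4:44517356-44547067 of 29.7 kb. Their scores were 22.8, 32.8, 40.4 and 36.3. No H3K4me3 peak of any list overlapped these 4 domains, and the nearest lay between 57292 bp and 216702 bp away. The same share over all autosomal regions with a peak of 10000 bp or more was not computed, so whether this absence is unusual is unknown.

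The highest scores did not belong to the widest regions. The highest, 115, was that of chr11:3060030-3060787, a region of 758 bp close to the first assembled bases of the chromosome. A bRG peak lay 3027 bp from it. The next score, 38.4, was that of chr17:3082087-3083024, also near the start of its chromosome, with no other aRG-N peak within 244340 bp. The other regions with scores above 30 were chr9:72700119-72701179 (32.2), chr4:34835269-34839680 (31.3) and chr6:115972097-115972496 (31.1). The first of these 3 lay 321 bp from a bRG peak and the second 157632 bp from the nearest other list's peak.

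H3K4me3 was rare at the aRG-N only regions, in aRG-N and in every other cell type. The H3K4me3 list of aRG-N overlapped 20 of the 1469 regions (1.36%, interval 0.834 to 2.09%). Among all 9259 autosomal H3K27me3 regions without a peak of 10000 bp or more, these 1469 included, that share was 31.9%. The NEC H3K4me3 list overlapped 44 regions (3.0%) against 41.1% of those 9259, and the aRG-P list 20 regions (1.36%) against 28.5%. The bRG list overlapped 18 regions (1.23%) against 28.2%, and the N list 21 regions (1.43%) against 29.3%. In all, 1423 of the 1469 regions met no H3K4me3 peak of any list. The share with H3K4me3 in at least 1 list was 3.13% (interval 2.30 to 4.15%) against 41.9% of those 9259. In all 5 lists it was 0.885% (13 regions) against 24.1%.

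H3K4me3 was also rare at the regions found in proliferative apical glia alone, and less rare at those of the other 3 cell types. The aRG-N H3K4me3 list overlapped 3 of the 560 aRG-P only regions (0.536%, interval 0.111 to 1.56%). It overlapped 145 of the 920 N only regions (15.8%, interval 13.5 to 18.3%) and 23 of the 106 bRG only regions (21.7%, interval 14.3 to 30.8%). For the 1815 NEC only regions the share was 37.1% (interval 34.9 to 39.4%). Over all 9259 autosomal regions it was 31.9%, so the N only and bRG only shares were also below it, though by less. Regions of N only were of like width, with a median of 845 bp, and those of bRG and aRG-P were shorter, with 657 and 690 bp. The 2 apical E14.5 lists thus held single-list regions almost without H3K4me3. The share with H3K4me3 of the same cell type was 43.6% for NEC only, 20.8% for bRG only and 12.2% for N only regions. Over all 9259 regions these lists overlapped 41.1%, 28.2% and 29.3%. The aRG-P H3K27me3 names mention an exclusion, and the apical H3K4me3 headers add 2000 bp up and down. Whether the lists compared were made alike is unknown, and the part of this in the likeness of the apical sets was not tested.

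The cell type with which a region was shared also went with its H3K4me3. Among regions found in aRG-N and exactly 1 other list, the aRG-N H3K4me3 list overlapped 3 of 180 shared with aRG-P (1.67%, interval 0.345 to 4.79%). It overlapped 28 of 278 shared with N (10.1%, interval 6.80 to 14.2%) and 176 of 307 shared with NEC (57.3%, interval 51.6 to 62.9%). Only 21 regions were shared with bRG alone, and 1 of them overlapped H3K4me3. For regions found in aRG-N and 2, 3 and 4 other lists the shares were 38.7%, 47.6% and 57.5%. The median widths of these 3 sets also rose, from 2763.5 to 3475 and 4988 bp. Regions shared with aRG-P, N or NEC alone had medians of 1988, 1955.5 and 2329 bp. The part of width in the shares was not tested. The NEC H3K4me3 list overlapped 63.5% of the regions shared with NEC alone (interval 57.9 to 68.9%) and 81.9% of those in all 5 lists (interval 80.1 to 83.7%). Regions shared with NEC alone and regions in all 5 lists thus had like shares with H3K4me3 of aRG-N, and unlike shares with H3K4me3 of NEC.

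**Figure D2:**
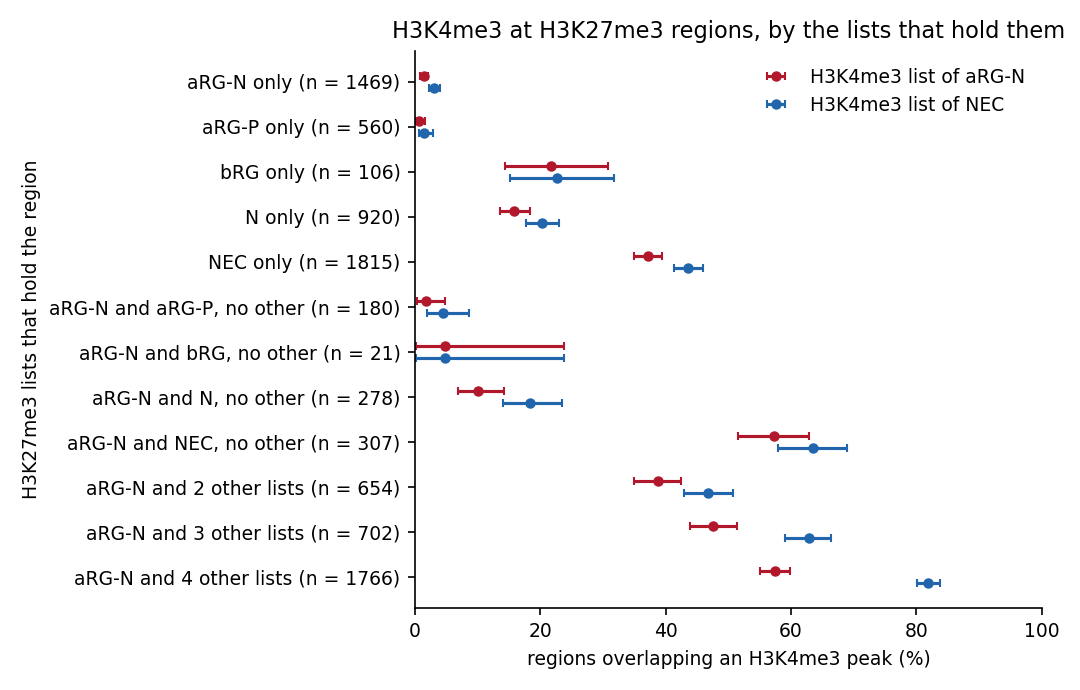
Percentage of autosomal H3K27me3 regions (no peak of 10000 bp or more) that overlap an H3K4me3 peak of aRG-N (red) or of NEC (blue), by the H3K27me3 lists that hold the region. Points are shares, bars are exact 95% binomial intervals over regions, and n is the number of regions. The aRG-N only regions stand at 1.36% and 3.0%, next to the aRG-P only regions, and regions in all 5 lists at 57.5% and 81.9%.

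The share depended on the lists used in the rule. With the NEC H3K27me3 list ignored in the rule, the aRG-N only set grew to 1851 regions, of which 7.67% overlapped aRG-N H3K4me3. With each list cut to its 3476 highest scores over all chromosomes, 320 regions were found in aRG-N alone and 6.88% overlapped aRG-N H3K4me3. Of these 320, 147 began where one of the 1469 regions begins. Lists so cut can still differ in length on the autosomes, where 5798 of all 9460 NEC peaks and 3387 of all 3476 bRG peaks lay. The same settings gave 24.6% and 29.2% for N only regions, 31.5% and 23.6% for bRG only regions and 1.65% and 1.38% for aRG-P only regions. Each setting thus left both apical sets below the N only and bRG only sets. The aRG-N only share was then above that of the aRG-P only regions. Other settings gave between 0.545%, with at least 50% of the H3K4me3 peak required inside the region, and 2.44%, with the N list ignored.

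Short peaks meet other peaks less often than long ones, so the regions were also set beside other aRG-N peaks of like width. Among peaks under 500 bp, aRG-N H3K4me3 overlapped 1.42% of 353 aRG-N only regions and 16.6% of 205 other autosomal aRG-N peaks. From 500 to under 1000 bp the shares were 0.833% of 480 and 23.4% of 496, and from 1000 to under 2000 bp they were 1.78% of 449 and 32.6% of 969. From 2000 to under 4000 bp they were 1.81% of 166 and 43.7% of 1311. None of the 21 regions of 4000 bp or more overlapped H3K4me3 (upper bound 16.1%), against 48.3% of 1247 other peaks below 10000 bp. The share among other peaks rose with width at every step, and that of the aRG-N only regions stayed below 2% in each class.

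A like difference was seen within classes of score. For scores of 15 to under 17, 1.41% of 427 aRG-N only regions and 15.3% of 209 other peaks overlapped aRG-N H3K4me3. For scores of 22 to under 30 the shares were 0.820% of 122 regions and 42.1% of 1217 peaks. Other aRG-N peaks of like width or like score thus overlapped H3K4me3 at higher shares than the aRG-N only regions in every class compared.

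**Figure D3:**
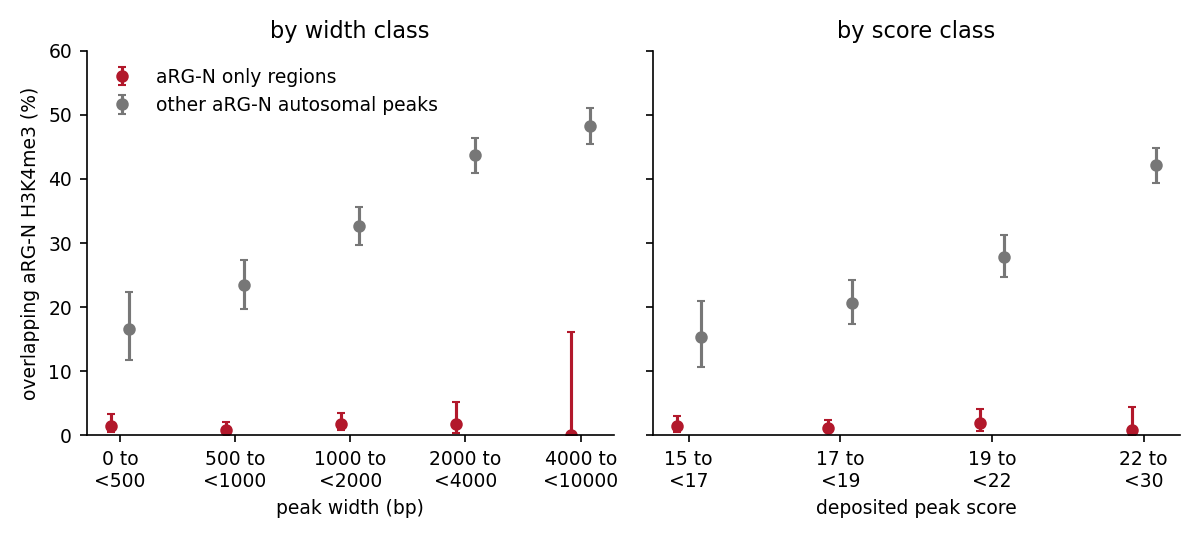
Percentage of aRG-N H3K27me3 peaks that overlap an aRG-N H3K4me3 peak, by class of peak width in bp (left) and of deposited score (right). Red marks the aRG-N only regions, grey the other autosomal aRG-N peaks below 10000 bp, and bars are exact 95% binomial intervals. Red points lie between 0 and 1.88%, and grey points between 15.3% and 48.3%.

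Among the 46 regions that did meet H3K4me3, 44 met it in NEC. This was much as over all 9259 autosomal regions, where 3878 met H3K4me3 in at least 1 list and 3805 met it in NEC. In 17 of the 46 regions H3K4me3 was found in NEC alone, in 13 in all 5 lists, in 4 in NEC and N and in 2 in N alone. Over all 9259 regions, 2233 of the 3878 met it in all 5 lists, a larger part than 13 of 46. The other patterns were not counted over all regions. No region overlapped H3K4me3 in aRG-N alone. That count was not made over all 9259 regions, where 3805 of the 3878 marked regions met H3K4me3 in NEC and few could lack it there. The absence is therefore not read as a trait of the aRG-N only regions. The NEC H3K4me3 list was the longest of the 5, with 17867 peaks, and that of aRG-N the shortest, with 14801. In the 20 regions with aRG-N H3K4me3 the overlap covered a median of 31.1% of the region, and the summit of the H3K4me3 peak lay inside 8 of them. The aRG-N fold enrichment of these H3K4me3 peaks, a value of the authors' peak caller, ran from 4.44 to 19.3, and 4 of the 20 exceeded the median of the list, 11.8.

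The strongest aRG-N H3K4me3 at such a region was on chromosome 3, where the region chr3:86028736-86029415 overlapped by 615 bp an H3K4me3 peak with a fold enrichment of 19.3. That site was marked by H3K4me3 in all 5 lists. The second, chr16:28930381-28930754, touched the edge of its aRG-N H3K4me3 peak (fold enrichment 16.5) by 42 bp, and the mark was missing there in N alone. At chr8:35872503-35875094 the aRG-N H3K4me3 peak (13.0) reached 686 bp into the region, and all 5 lists held the mark. At chr16:72664309-72665360 (12.1) the mark was again in all 5 lists and covered the whole region in NEC and N. The last of the 5 with the highest values, chr2:79096027-79097037 (11.7), lacked H3K4me3 in N. In none of these 5 did the summit of the aRG-N H3K4me3 peak lie inside the region.

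At 1 region H3K4me3 was found in the other 4 lists and not in aRG-N. It was chr5:75972119-75973630, with an H3K27me3 score of 24.1. The highest fold enrichment of the H3K4me3 peaks there was 20.2 in NEC, 12 in aRG-P, 10.6 in bRG and 11.3 in N. The overlap with the region, over all H3K4me3 peaks of a list, was 466 bp in NEC, 474 bp in aRG-P, 255 bp in bRG and 918 bp in N. In NEC and bRG it included further peaks. The peaks of highest fold enrichment ended near the lower edge of the region, at 75972303 in NEC and 75972153 in bRG. The nearest aRG-N H3K4me3 peak lay 52 bp outside the region. An aRG-P H3K27me3 peak lay 1709 bp away and another aRG-N peak 1391 bp away. The mark was thus called next to this region in aRG-N, though not on it.

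Among the 17 regions with H3K4me3 in NEC alone, the 5 with the highest NEC fold enrichment mostly had an aRG-N H3K4me3 peak close by. At chr7:104938339-104938807 the NEC value was 45.8 and the nearest aRG-N H3K4me3 peak lay 331 bp away. At chr4:47363998-47365154 (25.6), that distance was 43 bp. It was 1040 bp at chr3:121672010-121672424 (18.2) and 135 bp at chr5:17081144-17082475 (17.7). The exception was chr4:118215748-118216219 (13.8), where the nearest aRG-N H3K4me3 peak was 76793 bp away. The 2 regions with H3K4me3 in N alone were chr6:54941127-54942196, where the N peak (9.62) overlapped by 48 bp and an aRG-N H3K4me3 peak lay 357 bp away, and the chromosome 17 region of score 38.4, where the N peak had a fold enrichment of 2.08.

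Most aRG-N only regions lay at a distance from H3K4me3. The median distance to the nearest aRG-N H3K4me3 peak was 38.5 kb, against 3.22 kb for the other autosomal aRG-N H3K27me3 peaks. Within 5000 bp of such a peak lay 247 regions (16.8%, interval 14.9 to 18.8%) and 51.9% of the other peaks. The regions found in other lists alone, measured to H3K4me3 of their own cell type, had median distances of 40.6 kb in aRG-P, 40.1 kb in N, 31.9 kb in bRG and 0.194 kb in NEC.

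Another aRG-N H3K27me3 peak lay within 5000 bp of 645 regions (43.9%, interval 41.3 to 46.5%), against 30.4% (interval 29.1 to 31.7%) of the other autosomal aRG-N peaks. The value for the aRG-N only regions was 24.7% with lists cut to equal length over all chromosomes. It was 20.9% with no other list's peak within 5000 bp and 15% with peaks joined across gaps of up to 3000 bp. That of the other peaks was not computed under these settings. The same value for the other single-list sets within their own lists was 35.0% in N, 26.8% in NEC, 16.8% in aRG-P and 12.3% in bRG, in lists of unlike length. For 162 regions (11%) a neighbour within 5000 bp belonged to a region found in all 5 lists, and for 298 (20.3%) to a region found in aRG-N and 1 to 3 other lists but none in all 5. The neighbours of 185 regions (12.6%) were found in aRG-N alone, and 824 regions (56.1%) had no aRG-N neighbour at that distance. Per the peak numbers, 36.6% of the numbered aRG-N calls were not among the peaks used here, so neighbours can be missing from these counts.

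A peak of at least 1 other H3K27me3 list lay within 5000 bp of 609 regions (41.5%, interval 38.9 to 44.0%) and over 100 kb away from 235 (16.0%). The share within 5000 bp was 38.7% for bRG only, 36.1% for N only, 34.1% for aRG-P only and 14.8% for NEC only regions. The aRG-N only value was thus close to those of the other E14.5 sets. The N list came within 5000 bp of 410 regions (27.9%), the aRG-P list of 400 (27.2%), the NEC list of 227 (15.5%) and the bRG list of 204 (13.9%). The 860 regions with no other list's peak within 5000 bp had a median width of 886.5 bp, and 1.86% of them (interval 1.07 to 3.0%) overlapped aRG-N H3K4me3. The 609 with such a neighbour had a median width of 892 bp and a share of 0.657% (interval 0.179 to 1.67%). H3K4me3 of all 5 lists was found at 1.40% of the 860 (interval 0.723 to 2.42%) and 0.164% of the 609 (interval 0.00416 to 0.911%). The median widths were thus nearly the same. Both H3K4me3 shares were higher in the 860, with intervals that overlapped, and the difference was not tested.

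**Figure D4:**
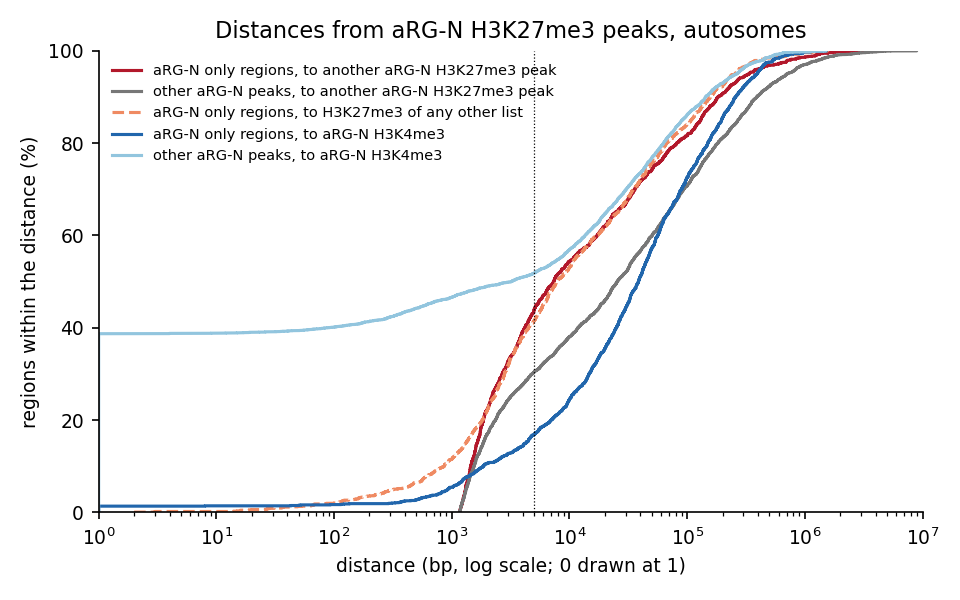
Cumulative percentage of autosomal aRG-N H3K27me3 peaks by distance (bp, log scale) to the nearest other aRG-N H3K27me3 peak, H3K27me3 peak of any other list, or aRG-N H3K4me3 peak, for aRG-N only regions and for the other peaks; the dotted line is at 5000 bp. At that line the aRG-N only regions reach 43.9% for aRG-N H3K27me3, 41.5% for other lists and 16.8% for H3K4me3, and the other peaks reach 30.4% and 51.9%.

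When aRG-N H3K27me3 peaks were chained across gaps of up to 5000 bp, 1293 runs held at least 1 aRG-N only region. Of the 1469 regions, 824 were alone in their run, 149 lay in 70 runs made up of such regions and nothing else, and 496 (33.8%) lay in runs with other aRG-N peaks. Runs of 3 or more aRG-N only regions and nothing else numbered 8. Runs with at least 4 aRG-N only regions numbered 4, and none of them held an H3K4me3 peak of any list. The share of all aRG-N runs without H3K4me3 was not computed, so whether this absence is unusual is unknown.

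The run with most aRG-N only regions was on chromosome 19 from 41235079 to 41268074, 33.0 kb with 5 such regions among 6 peaks. Its sixth peak, from 41245280 to 41260117, was 14838 bp wide with a score of 30.6. The core of that domain was marked in every list, as an aRG-P peak from 41248440 to 41254519 and an N peak from 41248398 to 41256362 show. The 5 aRG-N only regions flanked it, 2 on the lower side and 3 on the upper side, with scores from 16.4 to 23.1. In this place the aRG-N list thus extended beyond both ends of a domain that the other 4 lists held in a shorter form.

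The other 3 runs differed in what the remaining lists held. On chromosome 3 from 34225426 to 34236941, 4 regions of 344, 472, 2523 and 1232 bp made up the whole run, and no other list had H3K27me3 inside it. On chromosome 4 from 45715311 to 45736154, 4 regions stood beside 1 shared aRG-N peak, which overlapped an aRG-P peak of 976 bp. On chromosome 5 from 141900240 to 141916993, 4 regions stood beside 2 shared aRG-N peaks, which overlapped 1 bRG and 1 N peak. Peaks covered between 33.6% and 63.6% of the length of these 4 runs.

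**Figure D5:**
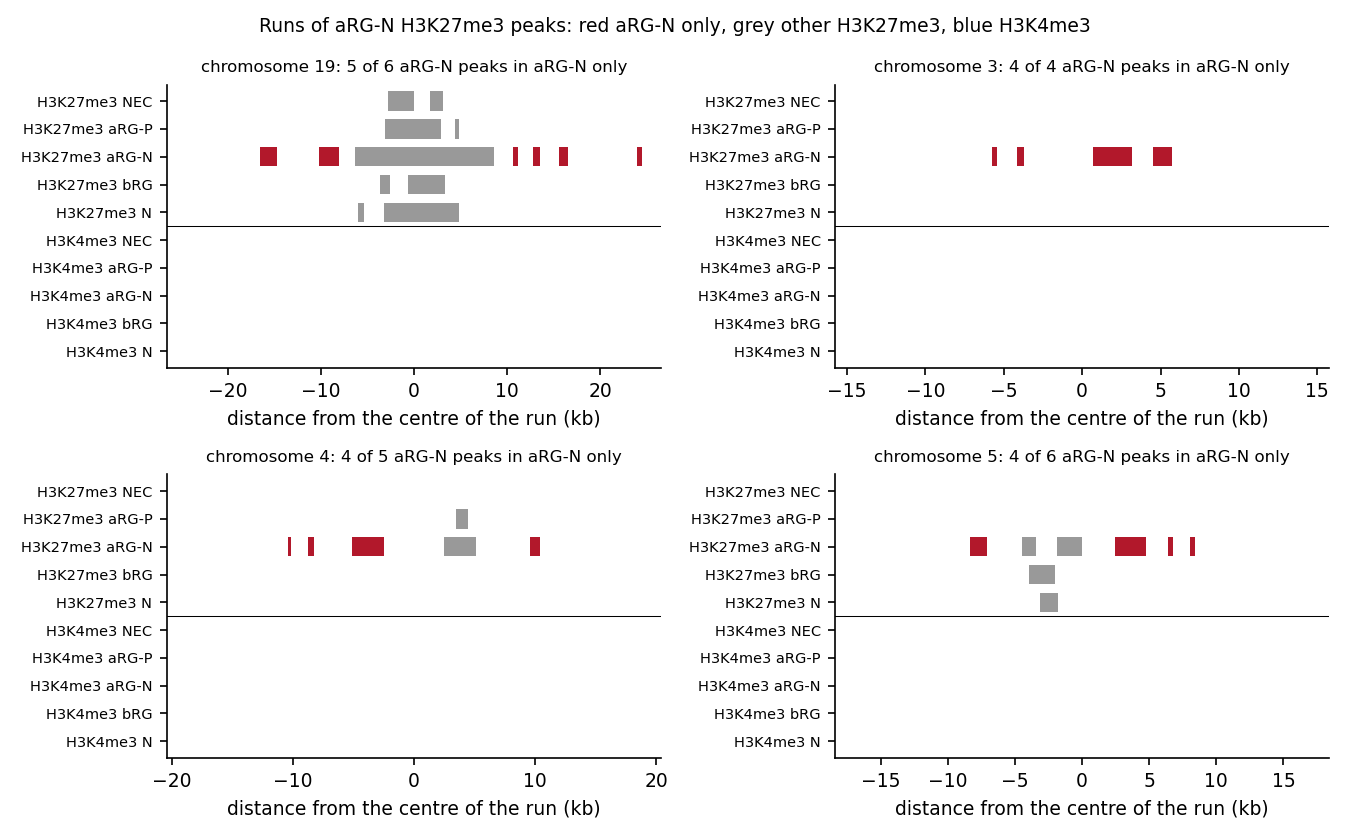
The 4 runs of aRG-N H3K27me3 peaks with at least 4 aRG-N only regions, drawn as distance in kb from the centre of the run, with a row for each list of both marks. Red bars are aRG-N only regions (5 of 6 peaks in the chromosome 19 run), grey bars are other H3K27me3 peaks, and H3K4me3 peaks would be blue; no H3K4me3 peak lies within the stretches drawn. The red bar farthest to the right on chromosome 19 is a region outside the run.

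The regions were spread over all 19 autosomes. Between 18.4% of the aRG-N peaks on chromosomes 10 and 12 and 29.2% of those on chromosome 14 were aRG-N only regions. Chromosome 11 held most of them, 179 (12.2% of the regions, against 9.84% of the other autosomal aRG-N peaks), followed by chromosome 2 with 148, chromosome 7 with 122 and chromosome 4 with 119. Windows of 1 Mb with at least 1 region numbered 700, of which 370 held a single one. The 65 windows with 5 or more held 423 regions.

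The densest window was on chromosome 8 from 123000001 to 124000000, where 13 of 24 aRG-N peaks were aRG-N only regions. H3K27me3 peaks in that window numbered 17 in NEC, 14 in aRG-P, 11 in bRG and 15 in N, and aRG-N H3K4me3 peaks numbered 14. The window on chromosome 1 from 91000001 to 92000000 held 10 regions among 25 aRG-N peaks, beside the 10.8 kb domain left out for its width. The other lists had between 4 H3K27me3 peaks there, in NEC, and 18, in N, and the aRG-N H3K4me3 list had 1. After these, 6 windows tied with 9 regions each, on chromosomes 4, 11, 14 and 19. The densest windows thus held H3K27me3 in every cell type, and their density of H3K4me3 peaks ranged widely.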

How the data were processed

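Peak lists of H3K4me3 and H3K27me3 in 5 cell types were used, 1 list for each. Build mm9, bedtools, MACS2 and Bowtie 1.0.0 are named in the submitters' processing notes. Per the file headers and peak names, lists refer to all transcripts and were called on combined samples. The apical H3K4me3 headers add 2000 bp up and down, the N H3K27me3 names an extension of 200, and the aRG-P H3K27me3 names an exclusion. For H3K4me3 the authors deposited a fold enrichment (a ratio) and a −log10 q value for each peak. For H3K27me3 a deposited column is called a score, since its meaning could not be settled. These values describe and rank peaks within a list.

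Merging, overlap, distances and exact intervals were computed in Python 3.11.15 (scipy 1.17.1, pandas 2.3.3, numpy 2.4.6). Figures used matplotlib 3.10.9. The rule was tested on simulated lists. Named regions were up to 5 by width, score, aRG-N H3K4me3 fold enrichment and H3K4me3 pattern, windows of 1 Mb with most regions and regions at the width limit. The runs with at least 4 regions were picked once their values were known. The regions, sets and rules were chosen with earlier results of these data known. Planned gene lists were not analysed here, since the reference table held another build than mm9.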

Additional observations from a re-analysis of the deposited data

How the results depend on the processing

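No paired analysis was possible because each list was called on combined samples, and for the same reason no replicate could be left out. Of 61 alternative values, 26 moved by more than the counting interval or, for the number of regions, by more than 1.5 times. Joining peaks across gaps of up to 3000 bp left 876 regions, of which 15% had another aRG-N peak within 5000 bp. Allowing no other list's peak within 5000 bp left 860 regions, with 20.9%. These 2 settings join or remove neighbours by construction. Lists cut to equal length over all chromosomes gave 320 regions with a median width of 1437.5 bp. Of these, 6.88% overlapped aRG-N H3K4me3, 4.69% H3K4me3 of all 5 lists, and 24.7% had an aRG-N neighbour. The share with aRG-N H3K4me3 was then 29.2% for N only and 61.1% for NEC only regions. Scores at or above the list median left 134 regions with a median of 1056.5 bp, 0.746% with aRG-N H3K4me3 and 49.3% with a neighbour. With the NEC list ignored, the shares were 7.67% (aRG-N H3K4me3), 5.40% (all 5 lists) and 40.4% (neighbour), and 24.6%, 31.5% and 1.65% of N, bRG and aRG-P only regions overlapped aRG-N H3K4me3. With the N list ignored, 2.44% did and the median width was 938.0 bp. With the aRG-P list ignored the width was 943.5 bp. With at least 50% of the H3K4me3 peak required inside, 0.545% overlapped aRG-N H3K4me3 and 0.340% all 5 lists. The cause of these shifts was not tested. The settings for the NEC, N, bRG and aRG-P only regions were chosen after seeing the data.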

Other observations

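The rule left out chromosome X, where H3K27me3 regions found in aRG-N alone numbered 105 among 665 aRG-N peaks. Their median width was 780 bp and the widest measured 2037 bp. Of these 105 regions, 1 overlapped H3K4me3 of aRG-N and 2 overlapped H3K4me3 of any list. The same share over all H3K27me3 regions of chromosome X was not computed, so whether these counts are low for that chromosome is unknown.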
